A study of Paralichthys olivaceus with 24 samples.

Results

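A pair of genes of the Hsp70 chaperone system was followed in muscle of olive flounder (Paralichthys olivaceus), a flatfish of East Asian coasts and farms, as the water was warmed. The pair is hspa1b, listed in the authors' table as LOC109630790 and given its symbol by RefSeq, and hspbp1, listed by that symbol. Both were chosen by their measured values, in particular the large positive fold at 28 °C against 12 °C, so their folds are descriptions and carry no test. They are 2 of the 11646 gene rows in the table. The rule that picked them lists them by name, with their values known, and sets no threshold on a value.

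Hsp70 proteins bind unfolded stretches of other proteins and hold or refold them in a cycle driven by ATP. J-domain proteins deliver the client and speed ATP hydrolysis, which closes Hsp70 on it, and nucleotide exchange factors then remove ADP so that the client is let go. hspa1b encodes an inducible cytosolic Hsp70, a hallmark of the heat shock response in muscle as in other tissues, and hspbp1 encodes an exchange factor that binds cytosolic Hsp70. Studies of the human protein also describe HspBP1 as a restraint on CHIP, the ubiquitin ligase that works with Hsp70.

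The labels list 24 samples of fish aged 9 months from gill, liver and muscle, in series named A and C, at 12, 18, 23 and 28 °C. The values used here are those of muscle in series C, with 1 library at each temperature, and 20 samples were not analysed here. All fish had first been acclimated to 12 °C with 15 fish per treatment, and neither a genetic change nor any agent other than temperature is named. An acute regime (moves between temperatures 3 h apart) and a chronic one (warming by 3 °C per h, then at least 20 h at the end point) were used, but the labels do not say which of them C stands for. The labels mention duplicates, yet each temperature has 1 column, so no value below has a replicate, an error or a p-value. Whether a column pools fish is not stated.

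In the comparison columns of the authors' deposited table, which include a constant for each library, all 11646 rows differ by 2-fold or more between some warmer temperature and 12 °C, so genes without such a difference are not described. Sequencing depth at 18, 23 and 28 °C was estimated as 1.004, 0.981 and 1.013 times that at 12 °C, from the spacing of low values. The search covered only ratios near equal depth, so it could not have shown a large difference. The absolute depth is unknown. Of 37 fast muscle markers, 6 had a row. These rows did not share a direction. The parvalbumin gene pvalb1 had 6441, 5153, 4481 and 2336 RPKM from 12 to 28 °C, and ldb3b, for a protein of the muscle Z-disc, 500.7, 515.8, 397.7 and 257.5 RPKM. The skeletal actin gene acta1a had 66.9, 395.5, 417.1 and 308.9 RPKM, and the calcium pump gene atp2a1 17.0, 23.9, 34.7 and 8.88 RPKM. A second pump row, atp2a1l, was listed at 0 in the 23 °C library and between 14940 and 15859 RPKM in the other libraries. For mylpf, which encodes a light chain of fast myosin, the 18 °C library lists 0 and the others lie between 20633 and 25861 RPKM. The summed level of 30 liver marker rows (of 45 listed) was 59.4, 5413, 69.3 and 527.5 RPKM from 12 to 28 °C. The 18 °C library thus stands apart, and the 28 °C library also lies well above the 12 °C library. In that list apoea was listed at 0 at 12 °C and apom at 0 at 23 °C. The 7 exocrine pancreas rows (of 25 listed) summed to 15.6, 248.3, 20.3 and 55.4 RPKM. In a bulk tissue, a change in the number of cells of a type and a change in RNA per cell cannot be told apart.

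Muscle levels of hspa1b were 1.68, 8.33, 17.6 and 5326 RPKM in the 12, 18, 23 and 28 °C libraries. It was higher at each warmer temperature, and the gap between 23 and 28 °C was far wider than the earlier ones. As a ratio of RPKM, 18 °C was 4.96 times 12 °C, 23 °C was 2.11 times 18 °C, and 28 °C was 303.0 times 23 °C. At 18 and 23 °C the gene had covered 0.125% and 0.299% of its total difference between 28 and 12 °C. Folds below are log2 ratios of RPKM + 1 to the 12 °C library, and the added 1 makes differences of low genes look smaller. On this scale hspa1b was at 1.80, 2.79 and 10.96 at 18, 23 and 28 °C.

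By level per length, hspa1b was number 3015 of the 11646 rows at 12 °C, 893 at 18 °C, 313 at 23 °C and 4 at 28 °C. It held 0.00134%, 0.00789%, 0.0188% and 3.97% of the summed RPKM of all rows from 12 to 28 °C. Genes without a 2-fold difference have no row, so these positions and shares are within the table and not of all muscle RNA. The sums also differ between libraries, as mylpf is listed at 0 at 18 °C and atp2a1l at 0 at 23 °C. The rows above it at 28 °C were mylpf, atp2a1l and LOC109645011, which has no symbol, at 20633, 14940 and 13468 RPKM. Copies of hsp70 genes can be nearly identical, and how the authors shared reads between copies is not stated, so this level may hold reads of other copies.

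hspbp1 was at 1.78, 2.46, 4.49 and 464.3 RPKM from 12 to 28 °C. It, too, was higher at each warmer temperature, and its differences up to 23 °C were far smaller than that between 23 and 28 °C. The ratio was 1.38 for 18 over 12 °C, 1.83 for 23 over 18 °C and 103.3 for 28 over 23 °C. Its log2 folds over 12 °C were 0.31, 0.98 and 7.39 at 18, 23 and 28 °C. At 23 °C the plain ratio to 12 °C was 2.52, while the log2 fold of RPKM + 1 lay just under the 2-fold line. hspbp1 held 0.146% and 0.586% of its difference between 28 and 12 °C at 18 and 23 °C. Its position by level was 2923, 2479, 1244 and 24 of the 11646 rows from 12 to 28 °C.

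**Figure D1:**
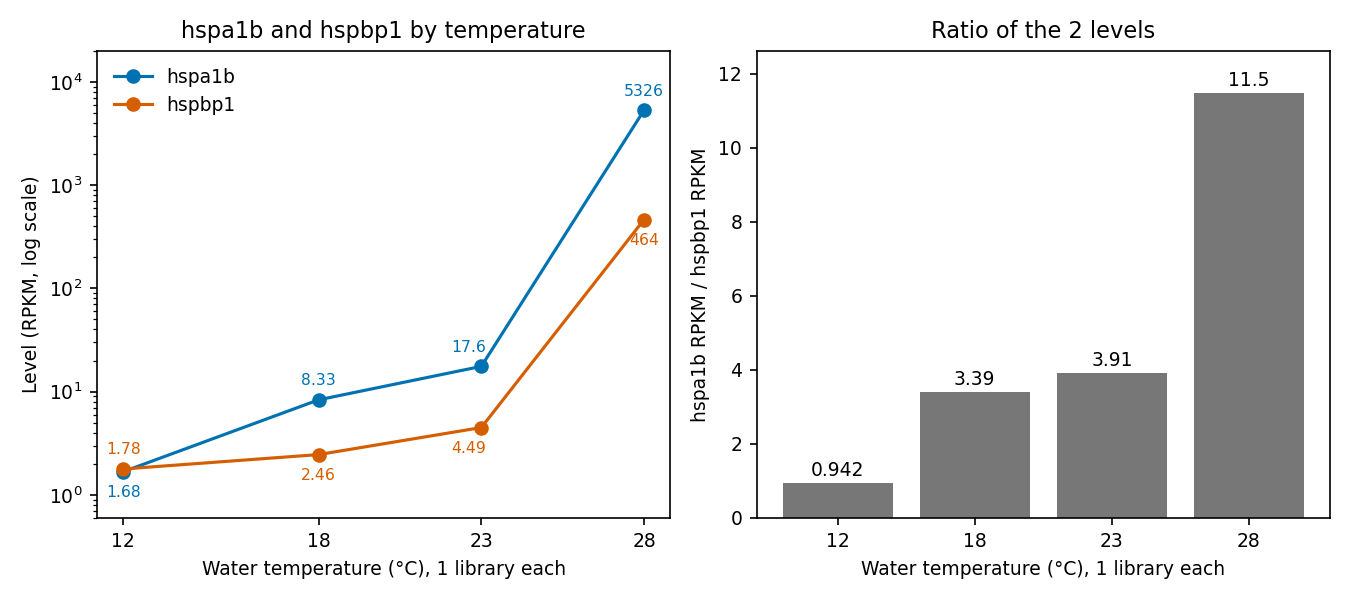
Left, level of hspa1b and hspbp1 (RPKM, log scale) against water temperature in °C, with 1 muscle library of series C per point. Right, the ratio of the 2 levels as bars. At 12 °C hspa1b (1.68 RPKM) and hspbp1 (1.78 RPKM) nearly coincide, and hspa1b is 11.5 times hspbp1 at 28 °C.

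The pair started level and drew apart with warming. The ratio of hspa1b to hspbp1 in RPKM was 0.942 at 12 °C, 3.39 at 18 °C, 3.91 at 23 °C and 11.5 at 28 °C. The log2 fold of hspa1b was larger than that of hspbp1 by 1.49 at 18 °C, 1.81 at 23 °C and 3.57 at 28 °C. At 12 °C the levels, 1.68 RPKM for hspa1b and 1.78 RPKM for hspbp1, lie close together, and without replicates it is not known whether they differ. The 3 folds of each gene share the 12 °C library, whereas the ratios of 23 over 18 °C and of 28 over 23 °C do not use it.

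Among the rows that averaged at least 1 RPKM over the pair of libraries, hspa1b had the fold number 206 of 4097 at 18 °C, 4 of 3793 at 23 °C and 2 of 4378 at 28 °C. hspbp1 was number 804 of 4097, 120 of 3793 and 6 of 4378. Thus hspa1b stood near the top of the list already at 23 °C, and hspbp1 at 28 °C. The liver marker rows, given above, were far higher in the 18 °C library than at 12 °C, and were also higher in the 28 °C library. Their part in the values of hspa1b and hspbp1 was not tested at any temperature. From 12 to 28 °C the liver markers summed to 59.4, 5413, 69.3 and 527.5 RPKM, and hspa1b was at 1.68, 8.33, 17.6 and 5326 RPKM. In the authors' deposited table, given there as natural log ratios to 12 °C with a library constant, hspa1b is at 1.54, 2.59 and 7.97 and hspbp1 at 0.26, 1.17 and 5.47 for 18, 23 and 28 °C. The authors placed both in cluster 4, the one with 4132 rows of the 7 clusters in that table.

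The other genes were taken from a list of name patterns, called the Hsp70 cycle list here, which matched 44 rows including both genes above. Besides genes of the cycle itself, the list holds cochaperones of Hsp90 and heat shock factors, and the counts include them. Among RefSeq symbols of this species the same patterns match 81 genes, of which 36 had a row, so the list is held in part. Counts of higher and lower genes take those that differed by 2-fold or more and averaged 1 RPKM or more over both libraries. At 28 °C, 26 of the 34 list genes with enough RPKM were higher and 1 was lower. Over all rows the shares were 34.2% higher and 22.5% lower. Genes without a 2-fold difference have no row, so these counts and shares are within the table. They are not shares of all Hsp70 cycle genes or of all genes of muscle. In the list and over all rows, a gene could meet the minimum through the 28 °C library alone, which favours a count as higher. Without hspa1b and hspbp1 the count of higher genes was 24 of 32 at 28 °C, 1 of 28 at 18 °C and 2 of 28 at 23 °C. At 18 °C, 2 of 30 were higher and 1 lower, against 7.66% and 2.68% of all rows. At 23 °C, 3 of 30 were higher and 1 lower, against 2.98% and 10.8% of all rows (113 and 408). Scaling by library medians turned that last split to 239 higher and 195 lower and gave 7 higher list genes. The list median of all 44 log2 folds, hspa1b and hspbp1 included, was -0.05, -0.03 and 1.53 at 18, 23 and 28 °C. For all rows it was 0.00, -0.03 and 0.02. Both medians include rows under the minimum, whose folds the added 1 makes look smaller. Over all rows that met the minimum, the median was -0.11, -0.33 and 0.008.

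**Figure D2:**
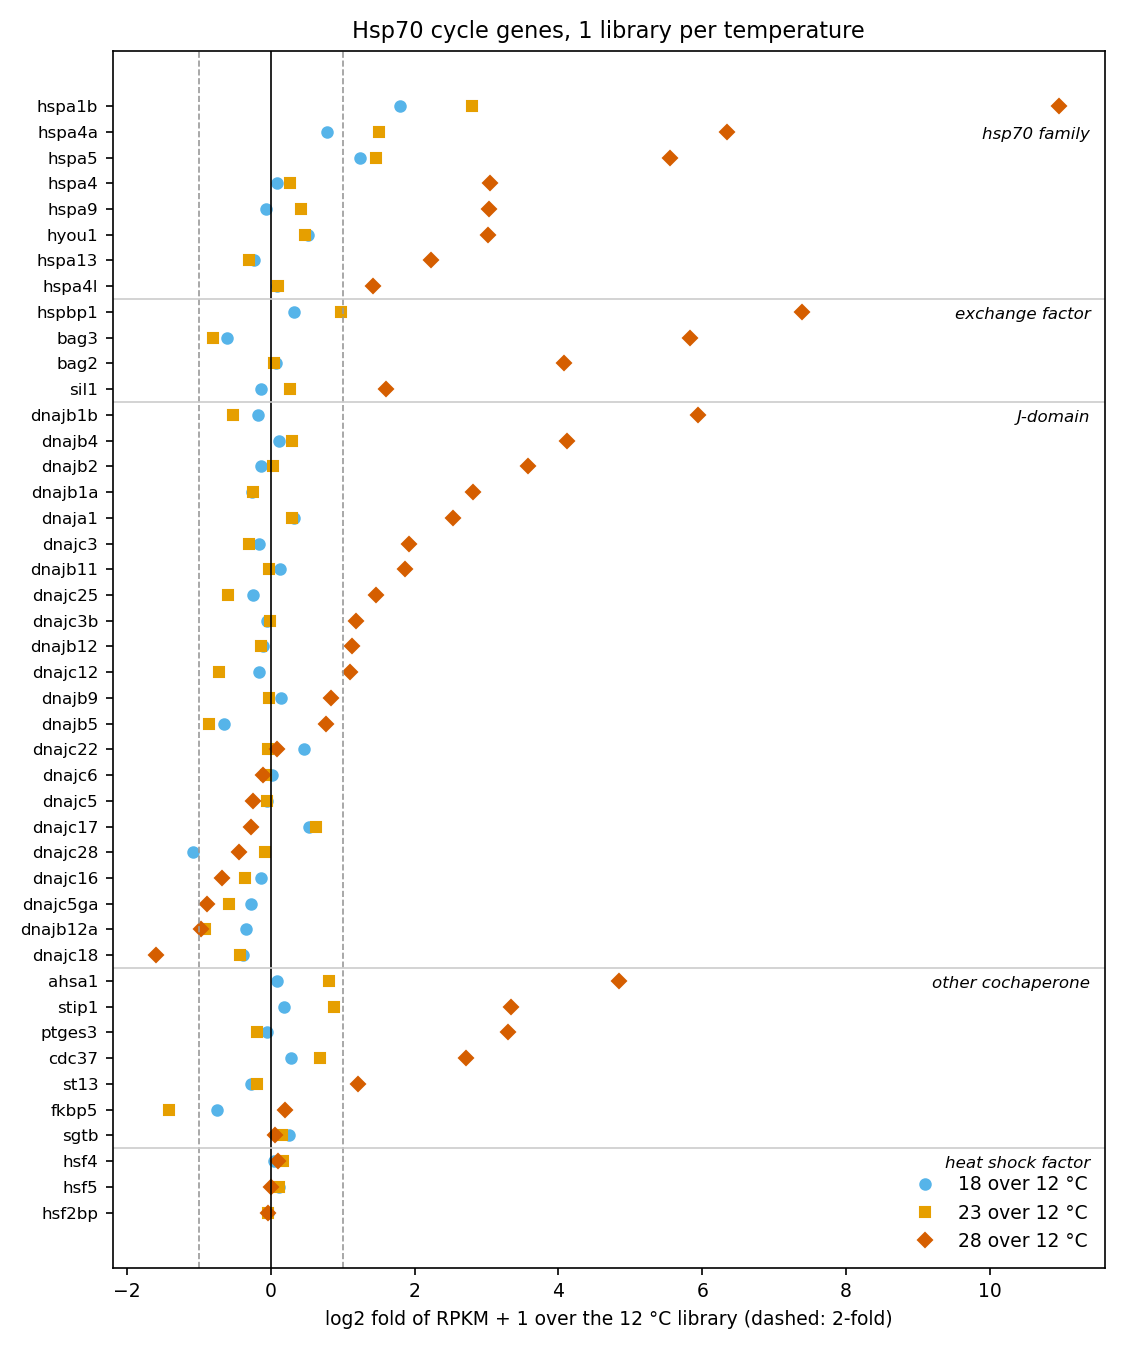
Log2 fold of RPKM + 1 over the 12 °C library for the 44 genes of the Hsp70 cycle list, by role. There is 1 symbol for each of 18, 23 and 28 °C, and dashed lines mark 2-fold. At 28 °C hspa1b (10.96) and hspbp1 (7.39) lie farthest right, and most other genes stay within 2-fold at 18 and 23 °C.

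Within the hsp70 family, which had 8 rows, hspa1b was below hspa4, hspa9, hspa5 and hspa4a at 12 °C and above every other row at 28 °C. Of the family, 7 rows averaged 1 RPKM or more over 28 and 12 °C, and all 7 were counted as higher at 28 °C, beside 34.2% of all rows. Without hspa1b, which was chosen for this fold, the count was 6 of 6. Of these, hyou1 (0.595 RPKM at 12 °C) and hspa13 (0.683 RPKM) met the minimum through the 28 °C library alone. Such rows can hardly be counted as other than higher. At 18 and 23 °C, 5 family rows met the minimum. hspa5, the Hsp70 of the endoplasmic reticulum, was at 4.45, 11.8, 14.0 and 255.0 RPKM from 12 to 28 °C. It was at least 2-fold higher at 18, 23 and 28 °C, with log2 folds of 1.23, 1.46 and 5.55. hspa9, the mitochondrial Hsp70, was at 13.6, 12.96, 18.5 and 119.2 RPKM. hspa13, a microsomal Hsp70 relative, was at 0.683, 0.428, 0.361 and 6.87 RPKM. These family members differ from hspa1b in size of fold: at 28 °C the next largest after its 10.96 was 6.34, for hspa4a.

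hspa4a, hspa4 and hspa4l encode large Hsp70 relatives of the Hsp110 kind, which act as exchange factors for other Hsp70 proteins. hspa4a was at 3.84, 7.32, 12.8 and 390.5 RPKM from 12 to 28 °C, higher at each step like hspa1b and hspbp1. hspa4 was at 14.5, 15.4, 17.5 and 126.5 RPKM. hspa4l stayed low, at 0.0848, 0.155, 0.157 and 1.90 RPKM. hyou1, the large Hsp70 relative of the endoplasmic reticulum, was at 0.595, 1.28, 1.21 and 12.0 RPKM.

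The exchange factors outside the family were bag3, bag2 and sil1. bag3 couples Hsp70 to small heat shock proteins and to the clearing of damaged muscle proteins by autophagy. It was at 20.9, 13.4, 11.5 and 1241 RPKM from 12 to 28 °C, so it was lower at 18 and 23 °C than at 12 °C and far higher at 28 °C. bag2, an exchange factor that also restrains CHIP in human cells, was at 7.55, 7.97, 7.82 and 143.0 RPKM. sil1, an exchange factor for hspa5, was at 2.17, 1.88, 2.82 and 8.58 RPKM. Of the 4 genes in this group, hspbp1 included, 4 were counted as higher at 28 °C, beside 34.2% of all rows. Without hspbp1, which was chosen for this fold, the count was 3 of 3. At 18 and 23 °C the count was 0, beside 7.66% and 2.98% of all rows, and with 4 genes a count of 0 is near those shares.

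The order of the 8 genes with an exchange factor role differed between the libraries. hspbp1 was number 6 of the 8 by level at 12 °C, 5 at 18 and 23 °C and 2 at 28 °C. It supplied 3.47%, 4.94%, 7.70% and 19.4% of their summed RPKM from 12 to 28 °C. bag3 supplied 40.6%, 26.9%, 19.8% and 52.0%, and hspa4, the highest of the 8 at 18 and 23 °C, 28.2%, 30.8%, 30.1% and 5.30%. Of 9 RefSeq genes matched by the exchange factor patterns, 4 had a row, so these shares leave some genes out. At 28 °C, hspbp1 at 464.3 RPKM and hspa4a at 390.5 RPKM are neighbours in this order, as were sil1 at 2.17 RPKM and hspbp1 at 1.78 RPKM at 12 °C. Without replicates, whether such neighbours differ is not known.

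**Figure D3:**
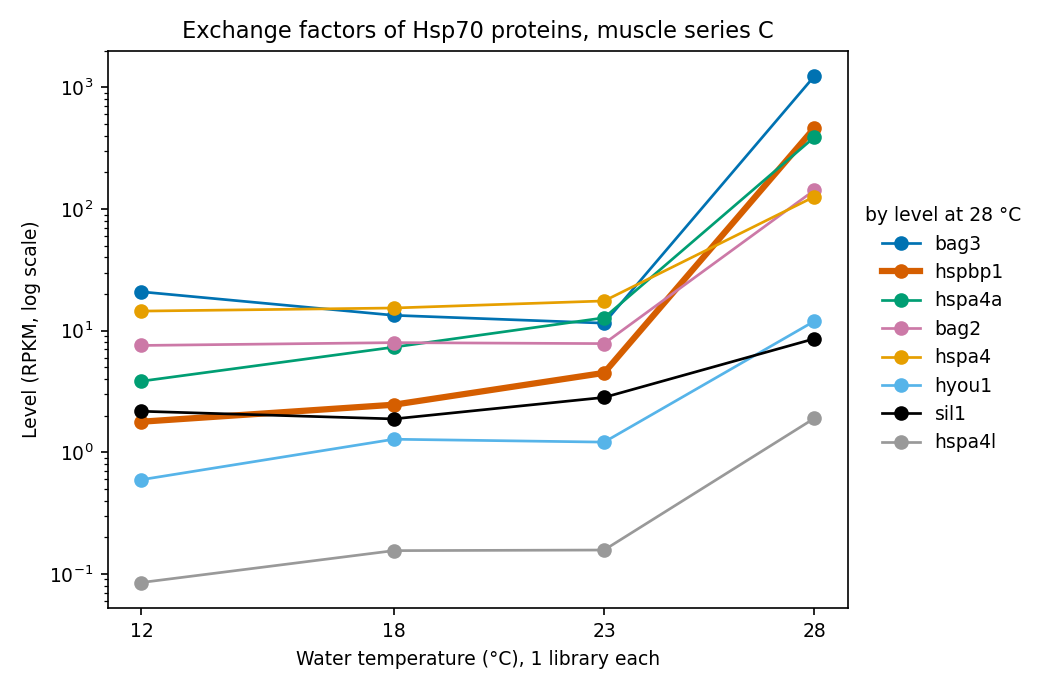
Level (RPKM, log scale) of the 8 genes with an exchange factor role against water temperature in °C, 1 muscle library of series C per point, with hspbp1 as the thick line. hspbp1 lies at 1.78 RPKM at 12 °C, below bag3, hspa4, bag2, hspa4a and sil1, and at 464.3 RPKM at 28 °C, below bag3 alone.

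J-domain proteins are the other partners of Hsp70 in the cycle, and 22 rows carried such a name. At 28 °C, 10 of the 17 with enough RPKM were higher and 1 was lower, beside 34.2% and 22.5% of all rows. The largest log2 fold was 5.94, of dnajb1b, a gene for a cytosolic partner of inducible Hsp70, at 5.89, 5.06, 3.80 and 421.9 RPKM from 12 to 28 °C. Next came dnajb4 at 24.9, 26.8, 30.7 and 449.2 RPKM, dnajb2 at 16.9, 15.3, 17.2 and 211.8 RPKM, and dnajb1a at 3.08, 2.39, 2.43 and 27.7 RPKM. In contrast to hspa1b and hspbp1, dnajb1b was lower at 18 and 23 °C than at 12 °C. With the values as deposited, dnajb4 was the 1 row of the 22 that was higher at each step, beside 896 of all 11646 rows.

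At the other end, dnajc18 was at 19.2, 14.4, 13.9 and 5.65 RPKM from 12 to 28 °C, and was the J-domain gene counted as lower at 28 °C. dnajb12a was at 22.6, 17.5, 11.5 and 11.0 RPKM, and dnajc5ga at 3.76, 2.91, 2.19 and 1.56 RPKM. dnajc18 and dnajb12a encode J-domain proteins of the endoplasmic reticulum membrane. dnajc28, at 1.88, 0.364, 1.73 and 1.11 RPKM, was the gene counted as lower at 18 °C. It was named after its values were seen.

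Among 7 rows of other cochaperones, 5 of the 6 with enough RPKM were counted as higher at 28 °C, beside 34.2% of all rows. stip1, which hands clients from Hsp70 to Hsp90, was at 14.0, 15.9, 26.6 and 150.1 RPKM from 12 to 28 °C. ahsa1, an activator of the Hsp90 ATPase, was at 12.5, 13.3, 22.5 and 387.1 RPKM, and cdc37, which brings kinases to Hsp90, at 5.75, 7.19, 9.83 and 43.1 RPKM. These 3 of the 7 were higher at each step, beside 10 of the 44 list rows and 896 of all 11646 rows. ptges3, the Hsp90 cochaperone p23, was at 18.2, 17.4, 15.8 and 188.4 RPKM. st13, which holds Hsp70 in its ADP-bound state, was at 38.9, 31.8, 33.8 and 91.7 RPKM. fkbp5, an immunophilin of Hsp90, was at 47.2, 27.8, 17.1 and 54.4 RPKM and was the list gene counted as lower at 23 °C. sgtb lay between 0.0217 and 0.216 RPKM.

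Heat shock factors are a family of transcription factors, of which some act on hsp70 promoters. The name patterns for them matched 3 rows, none of which met the minimum. Of 6 RefSeq genes matched by these patterns, 3 had a row. hsf4 lay between 0.0302 and 0.154 RPKM. hsf5 lay at or below 0.0851 RPKM and was listed at 0 in the 12 and 28 °C libraries. hsf2bp, which encodes a binding partner of a heat shock factor, was at 0.0330 RPKM at 12 °C and was listed at 0 in the others. A gene for hsf1 was not analysed here.

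Genes with a profile like that of hspa1b or hspbp1 were looked for among 1638 rows with a symbol and at least 5 RPKM in some library. Likeness was the Euclidean distance between the 3 log2 folds over 12 °C, in log2 units, over the 4 libraries. For hspbp1 the nearest were hspb9l (0.83), hspb1 (0.92), dnaja (1.14), hspa4a (1.26) and smyd1 (1.43). The small heat shock protein gene hspb9l was at 5.07, 10.5, 10.3 and 691.8 RPKM from 12 to 28 °C, and hspb1 at 44.2, 59.7, 86.5 and 3999 RPKM. dnaja, a J-domain gene that the name patterns had missed, was at 4.83, 8.03, 13.1 and 466.9 RPKM. smyd1, a muscle methyltransferase that takes part in myosin assembly, was at 36.7, 42.7, 56.04 and 2429 RPKM.

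For hspa1b no row with a symbol was as close. Its nearest was hsp90aa1.1, a gene for a cytosolic Hsp90, at a distance of 3.46 and with 21.1, 53.2, 108.0 and 4188 RPKM from 12 to 28 °C. hspbp1 itself came next at 4.27, followed by hspb9l (4.62), hspa4a (4.90) and dnaja (5.01). The distance of hspa1b to each was mostly in the 28 °C fold, where hsp90aa1.1 had 7.57 against 10.96 for hspa1b. All genes named here as nearest are in the authors' cluster 4, which holds 4132 of the 11646 rows. These genes were picked for their likeness, which is a description over 4 libraries that also share one 12 °C library, and the choice of measure changed them, as given in the closing section.

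**Figure D4:**
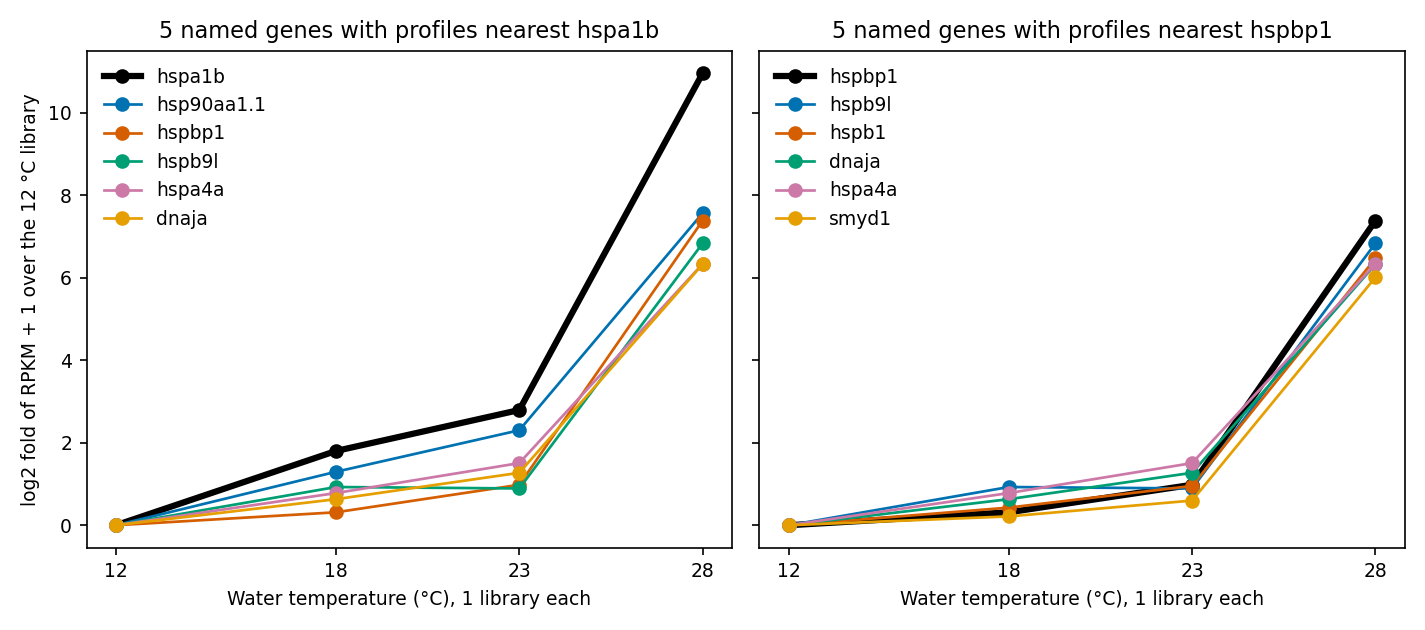
Log2 fold of RPKM + 1 over the 12 °C library against water temperature in °C, 1 muscle library of series C per point, for hspa1b (left) and hspbp1 (right) as thick lines and the 5 named genes nearest to each. At 28 °C hspa1b (10.96) lies above all 5 of its neighbours, of which hsp90aa1.1 is highest (7.57), while hspbp1 (7.39) lies within 1.43 log2 units of each of its own.

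Genes next to hspa1b and hspbp1 in the RefSeq order of genes (assembly ASM2471397v2) were read for comparison. The order alone was used, since the build behind the authors' table is not given in the sources used here. Of the 3 protein-coding genes on each side of hspa1b, 3 had a row. ahcyl1, the next one on one side and related to a hydrolase of the methionine cycle, was at 0.286, 0.281, 0.274 and 3.49 RPKM from 12 to 28 °C. ngrn, for a mitochondrial ribosome factor, was at 16.5, 10.2, 10.6 and 7.69 RPKM, and the transporter gene slc6a17 reached at most 0.0356 RPKM. Of the 3 on each side of hspbp1, 3 had a row. The potassium channel gene kcnj12b was at 16.6, 11.0, 6.86 and 0.781 RPKM, aspdh was listed at 0 at 12 °C and reached at most 0.714 RPKM in the others, and LOC109641460 reached at most 0.0778 RPKM. Genes without a row there, such as the protein-coding LOC138410547 next to hspa1b, were not analysed here.

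Library scaling moved the 23 °C values. Over the 8508 rows above 0 in every library, the median log2 level of a row relative to its own mean differed from that at 12 °C by -0.35 at 23 °C, by 0.00 at 18 °C and by -0.02 at 28 °C. After scaling by these medians, hspbp1 at 23 °C had a log2 fold of 1.28, past the 2-fold line, and hspa1b one of 3.13. Both genes stayed higher than at 12 °C at every warmer temperature under each scaling tried. The 28 °C folds of hspa1b and hspbp1 were 10.98 and 7.41 after this scaling and 10.82 and 7.25 with the authors' library constants.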

How the data were processed

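Muscle RNA of 4 samples in series C was used, 1 per temperature. The authors' values are RPKM (reads scaled by gene length and library size), per the file headers. The submitters' processing notes list TopHat2 and Cufflinks with no version. The deposited comparison columns are natural log ratios plus a constant, as read from the values, although their headers say log2. They match within 0.00001 in 11635, 11641 and 11633 rows, with RPKM under 0.01 set to 0.01. The genome build is not given in the sources used here.

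Of 7526 rows with a numbered gene ID, 5836 matched RefSeq by ID and 2788 took a symbol. Log2 folds used RPKM + 1. With 1 sample per temperature no test was run. Named genes were both members, every list row of the family, exchange factor, cochaperone and heat shock factor roles, the 4 highest and 3 lowest J-domain genes, and the 5 nearest profiles. Members, lists and rules were chosen with earlier results of these data known. The counting and distance steps were tested on simulated data. Python 3.11.15, pandas 2.3.3, numpy 2.4.6 and matplotlib 3.10.9 were used. Pseudocount, minimum, scaling, likeness measure and the genes and libraries included were varied.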

Additional observations from a re-analysis of the deposited data

How the results depend on the processing

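The depth of single values is unknown and no library has a replicate, so small differences at 18 and 23 °C cannot be set against an error. Of 131 alternative values, 97 kept their direction and side of the 2-fold line, or for counts and ranks stayed within 1.5 times. Of these, 6 are counts of the Hsp70 cycle list without liver and pancreas markers. The list holds none of those markers, so these 6 could not change. No fold reversed its direction. Counts, ranks and numbers of shared genes could only be marked as kept or moved. The larger direction over all rows at 23 °C did turn, as given below. hspbp1 at 23 over 12 °C crossed the 2-fold line upward with a pseudocount of 0.1 (log2 1.29), none (1.33, chosen after seeing the data), median scaling (1.28) and the authors' constants (1.27). hspa1b at 23 over 18 °C did so at 1.07, 1.33 (median scaling) and 1.40 (constants), and hspbp1 at 23 over 18 °C at 1.02 (constants). Higher genes of the Hsp70 cycle list at 23 °C numbered 7 (median scaling) or 6 (constants). Lower ones numbered 2 at 23 °C and 3 at 28 °C with a pseudocount of 0.1, 2 at 28 °C with the constants, and 0 at 18 °C with a minimum of 5 RPKM.

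Over all rows, a pseudocount of 0.1 gave 264, 754 and 1538 lower at 18, 23 and 28 °C and 210 higher at 23 °C. At 23 °C median scaling gave 239 higher and 195 lower, so the larger direction turned, and the constants 231 and 202. With a minimum of 5 RPKM, 152, 64 and 795 rows were higher at 18, 23 and 28 °C, and 72, 228 and 530 were lower. Of each set of 5 nearest genes, 2 were shared with a pseudocount of 0.1 and 0 with Pearson correlation. Among rows with a symbol alone, hspa1b was number 579 at 18 °C and 203 at 23 °C.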

Other observations

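Rows without a gene symbol lay closer to both profiles than the named genes did, and they were picked here after their values were seen. LOC109626154 was at 0.0251, 2.13, 2.72 and 2264 RPKM from 12 to 28 °C, and LOC109626317 at 0.0681, 1.61, 2.36 and 2121 RPKM. Their distances to hspa1b were 0.97 and 1.25 log2 units, against 3.46 for hsp90aa1.1, the nearest named gene. On the scale of RPKM + 1, LOC109626154 had a log2 fold of 11.11 at 28 °C, the one fold above the 10.96 of hspa1b. At 12 °C both numbered rows lay far below the added 1, while hspa1b was at 1.68 RPKM. Their folds and distances thus depend strongly on the added 1. A smaller added value would lift both folds above that of hspa1b. In the RefSeq order LOC109626154 and LOC109626317 are adjacent protein-coding genes. The next ones on one side, LOC109626316 and smad2, were at 1.05 and 2.81 RPKM at 28 °C, against 0.0288 and 0.358 RPKM at 12 °C. On the other side plppr1 went the other way, at 0.705 RPKM at 28 °C against 1.33 RPKM at 12 °C. grin3a and LOC109626328, which lie between, had no row. RefSeq gives none of these numbered genes a symbol, and what they encode was not examined.

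For hspbp1 the closest rows were LOC109642128 and LOC109626295, at distances of 0.26 and 0.49. LOC109642128 was at 5.28, 7.11, 13.5 and 1129 RPKM from 12 to 28 °C, and LOC109626295 at 1.31, 2.13, 2.93 and 288.0 RPKM. Both are in the authors' cluster 4, as are hspa1b, hspbp1 and in all 4132 of the 11646 rows.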
